A study of Mus musculus with 19 samples.

Results

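The 10 genes described encode integrin subunits by which T cells enter tissue and stay in it. They are the alpha subunit genes Itgae, Itga1, Itga4, Itgal, Itgav, Itgam and Itgax and the beta subunit genes Itgb1, Itgb2 and Itgb7. They were chosen by name, with earlier results of these data known. All 10 were found among the 53656 genes of each deposited count table. Their levels were compared across 7 groups, 19 RNA sequencing libraries in all, of CD8 T cells from C57BL/6 mice.

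Integrins are surface receptors built of an alpha and a beta chain, and the pairing sets what they bind. Signals inside the cell, relayed by the small GTPase Rap1 and the adaptor talin, switch them to a state that binds tightly. The beta2 integrin LFA-1 lets T cells arrest on vessel walls and, in mouse liver, lets CD8 T cells patrol the sinusoids. AlphaE paired with beta7 holds T cells to epithelium through E-cadherin, and alpha1 paired with beta1 holds them to collagen.

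SV40-I cells carry a transgenic receptor that sees SV40 large T antigen, the tumour antigen, while the OT-I receptor sees ovalbumin. Each of the following ex vivo groups held 3 libraries. The late SV40-I group (sorted as CD8 and Thy1.1) and the OT-I group (sorted as CD8 and Ly5.1) came, per their titles, from malignant liver lesions at days 20 to 21. The marker-high and marker-low groups were SV40-I cells of such lesions at days 8 to 9, labelled PD1hi/LAG3hi/CD39hi and PD1lo/LAG3lo/CD39lo. Each of 2 further groups held 2 libraries of SV40-I cells that had been stimulated in culture with antibodies to CD3 and CD28, transduced by retrovirus and grown with IL-2. The TOX-GFP group received a vector for GFP and TOX, a nuclear factor of exhausted T cells, and the GFP group a vector for GFP alone. Naive SV40-I cells (CD44low, 3 libraries) were the resting state. The labels give no animal ages. Headings in the tables read WT for marker-high libraries and KO where the cells were marker-low, but no label names a genotype, and it is not certain whether gate, genotype or both set those groups apart. The tissue is uncertain too, since all 19 libraries are given splenocytes as their source.

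Levels are given as CPM, a gene's count relative to its library's total after TMM scaling, which sets the libraries on a common footing. Library totals ran from 37006508 to 54195918 counts. All 10 T cell identity genes (Cd3e, Cd8a and 8 others) had counts in every library, and their summed level was 10026 to 29535 CPM ex vivo and 5482 to 7521 CPM in culture. Transcripts of other cells were present as well. The summed level of 12 macrophage genes was 62.7 to 1135 CPM in late SV40-I and 350 to 704 CPM in OT-I libraries, 4299 to 6265 CPM in marker-high and 786 to 9334 CPM in marker-low libraries, 3.29 to 7.05 CPM in culture and 118 to 310 CPM in naive libraries. Library 2 of the marker-low group stood apart, with 9334 CPM of macrophage, 5232 CPM of dendritic and 3754 CPM of neutrophil transcripts and the lowest ex vivo T cell sum. Over 1000 CPM of 10 hepatocyte genes were found in late SV40-I library 2 and OT-I library 3. In bulk libraries, fewer cells of a type and less RNA per cell cannot be told apart.

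Divided by exonic length, so that genes can be compared with each other, Itgb2 had the highest level of the 10 genes in all 5 ex vivo groups. Its level per kilobase was 898 ± 120 CPM in late SV40-I cells, 1426 ± 226 in OT-I cells, 716 ± 76.1 in marker-high cells, 774 ± 198 in marker-low cells and 490 ± 83.6 in naive cells (mean ± SD, n = 3 each). Itgal, the main alpha partner of Itgb2 in T cells, ranked after it in each of those groups. The third place went to Itgb7 in OT-I, marker-high, marker-low and naive cells. In late SV40-I cells it was shared by Itgb1 and Itgb7, at 6.2 ± 3.18 and 6.17 ± 4.08 CPM per kilobase, which overlapped. In both cultures Itgb7 ranked above Itgb2, at 284 ± 27.3 CPM per kilobase with TOX-GFP and 345 ± 16 with GFP (n = 2 each), against 174 ± 4.15 and 150 ± 0.670 for Itgb2. In naive cells the fourth place was held by Itgae at 120 ± 28.2 CPM per kilobase, which overlapped Itgb7 at 140 ± 36.9. The lowest place in naive cells was held by Itga1, which had no count.

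**Figure D1:**
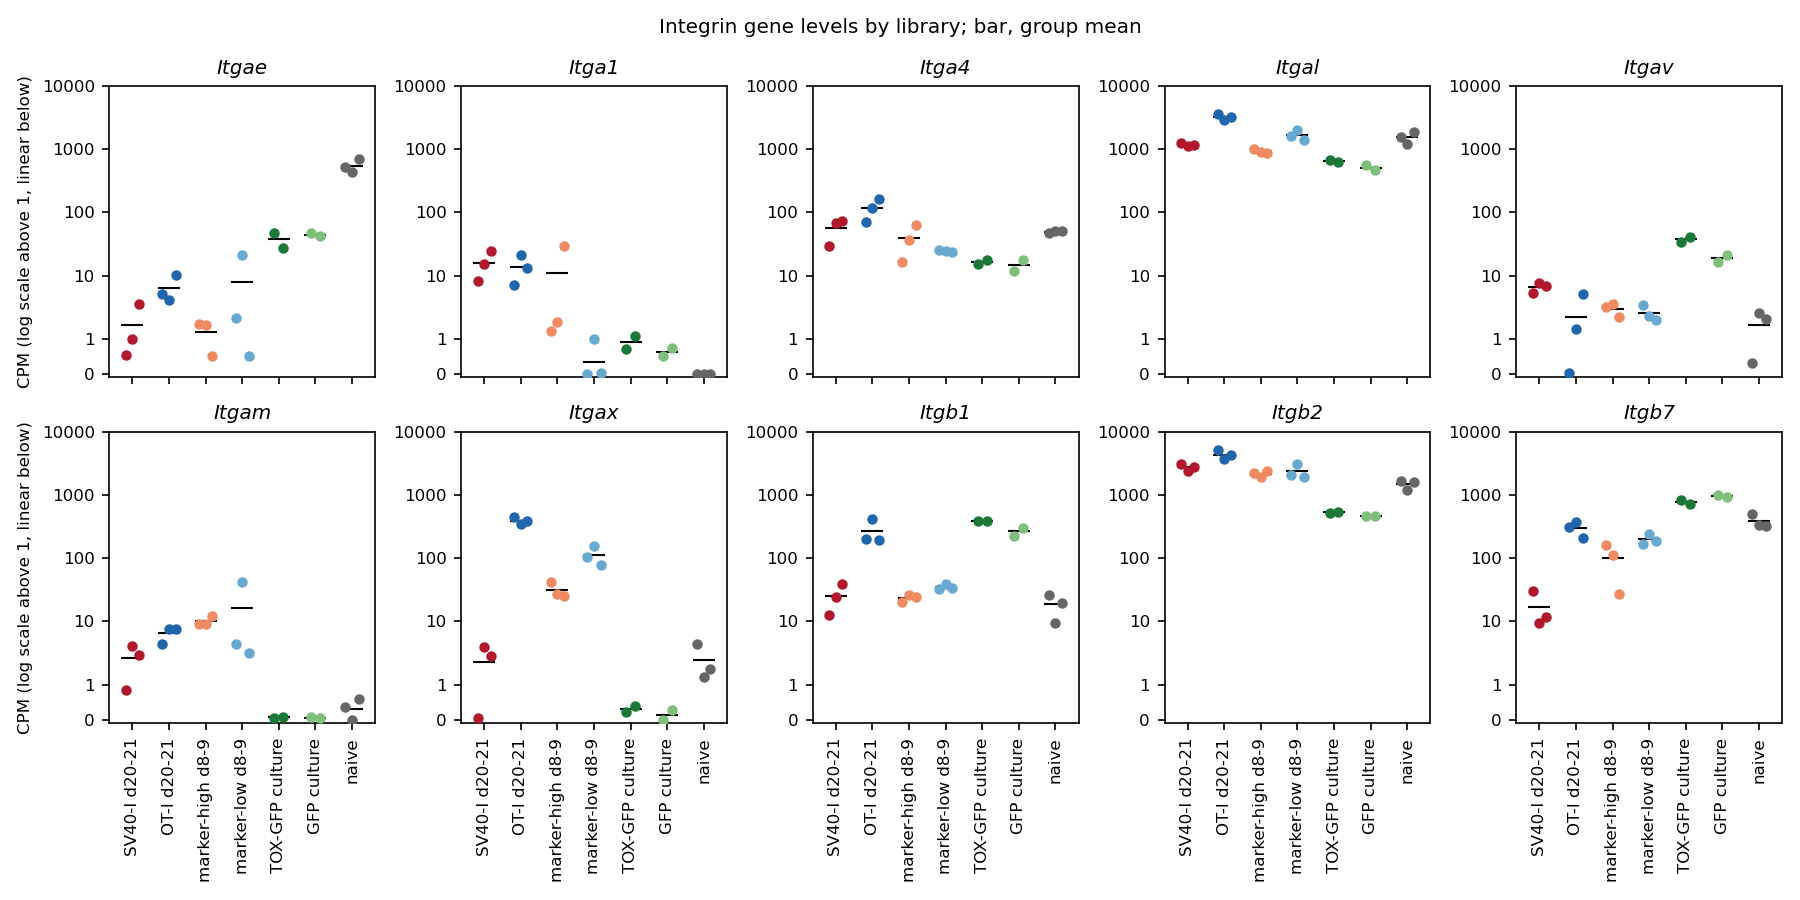
Levels of the 10 integrin genes in each of the 19 libraries, in TMM-scaled CPM on an axis that is linear below 1 and logarithmic above. Each point is a library and each bar a group mean; Itgae reaches at most 47.9 CPM outside the naive libraries, which stand at 432 to 688 CPM, and Itgax reaches at most 3.96 CPM in late SV40-I libraries, against 341 to 449 CPM in OT-I libraries.

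The alphaE gene was highest in naive cells. Itgae (GRCm38 chromosome 11, 73090583 to 73147446, plus strand) encodes alphaE, known as CD103. Late SV40-I libraries held 0.536, 1.00 and 3.51 CPM of Itgae, OT-I libraries 5.07, 4.06 and 10.3 CPM, and naive libraries 528, 432 and 688 CPM. At days 8 to 9 it stood at 1.71, 1.63 and 0.521 CPM in marker-high libraries and at 2.15, 21.4 and 0.503 CPM in marker-low libraries. Cultured cells lay in between, with 47.9 and 27.3 CPM under TOX-GFP and 46.4 and 41.8 CPM under GFP. No library of any other group reached the naive range. Itgae fell in all 5 groups compared with naive cells. The log2 fold change was -8.31 ± 1.34 in late SV40-I cells (± standard error, edgeR adjusted p = 0.000905) and -6.34 ± 1.23 in OT-I cells (adjusted p = 0.00626). It was -8.69 ± 1.37 in marker-high cells (adjusted p = 0.000706) and -6.05 ± 1.21 in marker-low cells (adjusted p = 0.00534). These comparisons share the naive libraries, and the 4 calls held under every alternative run. In GFP cultures the value was -3.64 ± 1.19 (adjusted p = 0.0284), and this call was lost without naive replicate 3 (adjusted p = 0.0548), without GFP replicate 1 (0.156) or GFP replicate 2 (0.172), and with no filter on low counts (0.0648).

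Among activated cells the differences in Itgae did not pass the test. The log2 fold change was -1.96 ± 1.04 between late SV40-I and OT-I cells (adjusted p = 0.295), -2.64 ± 1.07 between marker-high and marker-low cells (adjusted p = 0.351) and -0.28 ± 0.28 between TOX-GFP and GFP cultures (adjusted p = 0.723). The marker-low mean rested on library 2, the one rich in transcripts of other cells. Without it the marker-high against marker-low difference in Itgae was -0.0010. The part of those transcripts in the Itgae level was not tested. The gene Gsg2, which encodes the kinase haspin, lies inside an intron of Itgae on the opposite strand and shares no exonic base with it. Gsg2 had 3.57 to 49.6 CPM in all other libraries and 1.03 to 2.34 CPM in naive libraries.

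Itgb7 (chromosome 15, 102215995 to 102231944, minus strand) encodes beta7, the partner of alphaE and of alpha4. It was low in late SV40-I cells, at 30.1, 9.57 and 11.6 CPM, against 307, 371 and 212 CPM in OT-I cells. Marker-high libraries held 159, 111 and 26.7 CPM and marker-low libraries 170, 240 and 185 CPM. The cultures were highest, with 839 and 732 CPM under TOX-GFP and 986 and 924 CPM under GFP, while naive libraries had 505, 330 and 325 CPM. Late SV40-I libraries lay apart from OT-I and naive libraries, whereas the highest late library overlapped the marker-high range. Itgb7 fell in late SV40-I cells, by a log2 fold change of -4.12 ± 0.62 against OT-I cells (adjusted p = 0.00107) and of -4.44 ± 0.63 against naive cells (adjusted p = 0.000325). Both calls held under all 12 alternatives run for each. In marker-high against naive cells it fell by 1.92 ± 0.56 (adjusted p = 0.0270), a call lost without naive replicate 1 (0.0816) or marker-high replicate 2 (0.0731). In marker-low against naive cells Itgb7 was called with only those groups fitted (-0.97, adjusted p = 0.0448) and not with all groups.

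Itgb7 was also called between late SV40-I and marker-high cells, with a log2 fold change of -2.52 ± 0.58 (adjusted p = 0.0245). The 2 groups differ in day and in sorting gate, and their macrophage sums were 62.7 to 1135 CPM in late SV40-I and 4299 to 6265 CPM in marker-high libraries, so these cannot be told apart. This call was lost without late SV40-I replicate 2 (0.0906) or 3 (0.109) and without marker-high replicate 1 (0.113) or 2 (0.0855), with only those groups fitted (0.129) and without the library rich in hepatocyte transcripts (0.109). Between marker-high and marker-low cells the difference was -0.99 ± 0.55 (adjusted p = 0.545), between OT-I and naive cells -0.32 ± 0.54 (adjusted p = 0.820) and between TOX-GFP and GFP cultures -0.33 ± 0.12 (adjusted p = 0.340). None of these passed. In GFP cultures against naive cells Itgb7 was 1.30 ± 0.55 higher on the log2 scale without passing (adjusted p = 0.0821), and it passed with DESeq2 (0.0482), under library totals (0.0311) and with only those groups fitted (0.00421).

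Itga4 (chromosome 2, 79255426 to 79333123, plus strand) encodes alpha4, which pairs with beta7 to bind MAdCAM-1 of gut vessels and with beta1 to bind VCAM-1. In late SV40-I libraries it stood at 29.7, 68.9 and 73.6 CPM, and in OT-I libraries at 69.8, 117 and 165 CPM. Marker-high libraries had 16.7, 37.2 and 64.0 CPM, marker-low libraries 25.6, 24.9 and 23.7 CPM, and naive libraries 46.6, 50.4 and 50.9 CPM. In culture it stood at 15.3 and 18 CPM under TOX-GFP and at 11.6 and 17.9 CPM under GFP. All OT-I libraries lay above and all marker-low libraries below the naive range, which the late SV40-I and marker-high libraries spanned. With all groups fitted, the only call was in GFP cultures against naive cells, where Itga4 fell by 1.74 ± 0.50 (adjusted p = 0.0153), and it was lost without GFP replicate 1 (0.176) or 2 (0.0537). Late SV40-I against OT-I cells gave -1.04 ± 0.44 (adjusted p = 0.182), and OT-I against naive cells gave 1.31 ± 0.45 (adjusted p = 0.10). The OT-I against naive value passed with DESeq2 (0.0344) and with only its groups fitted (0.0407), and over all its alternatives the adjusted p ran from 0.0344 to 0.343. With only those groups fitted, marker-low against naive cells gave -1.0 (adjusted p = 0.0202). An exonic stretch of 1124 bases, 8.04% of the length of Itga4, is shared with Cerkl on the opposite strand, which had 0.763 to 5.99 CPM in any library.

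Itga1 and Itgav, whose products can pair with beta1, were high in different groups. Itga1 (chromosome 13, 114953096 to 115101964, minus strand) encodes alpha1, known as CD49a, a collagen receptor subunit used as a mark of tissue-resident T cells. Late SV40-I cells gave 8.22, 15.2 and 25.0 CPM and OT-I libraries 7.11, 21.2 and 13.3 CPM, while no naive library had any count. Marker-high libraries had 1.35, 1.87 and 29.5 CPM, and marker-low libraries had 0, 1.01 and 0.0219 CPM. The cultures had 0.718 and 1.11 CPM under TOX-GFP and 0.509 and 0.750 CPM under GFP. Late SV40-I and OT-I libraries overlapped, and marker-high library 3 stood far above the other marker-high libraries. That library also had 1453 CPM of 8 erythroid and platelet genes, beside 115 and 136 CPM in the others, and their part in its Itga1 level was not tested.

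Against a floor of 3 counts over the naive group, Itga1 was at least 739-fold higher in late SV40-I cells (adjusted p = 0.00666), at least 623-fold higher in OT-I cells (adjusted p = 0.0142), at least 481-fold higher in marker-high cells (adjusted p = 0.00769; at least 72.6-fold without library 3, which held 1075 of the 1197 counts) and at least 28.5-fold higher in GFP cultures (adjusted p = 0.0246). The OT-I call was lost without naive replicate 1 (0.0503) or 2 (0.0513). The call in GFP cultures was lost without any of naive replicates 1 (0.0631), 2 (0.0585) and 3 (0.0594) and without GFP replicate 2 (0.0705). In marker-low cells it did not pass (adjusted p = 0.0923), and it passed with DESeq2 (0.00280). Of the 46 marker-low counts 45 came from library 2, the library with a macrophage sum of 9334 CPM, and without it 1 count was left, for which no bound is given, and the fit gave an adjusted p of 0.614. The part of other cells' RNA in these 45 counts was not tested. Marker-high against marker-low cells gave a log2 difference of 4.94 ± 1.63 (adjusted p = 0.235), which ranged from 2.20 to 9.49 as single libraries were left out and passed with DESeq2 (0.0122). Late SV40-I against OT-I cells gave 0.20 ± 1.36 (adjusted p = 0.965) and TOX-GFP against GFP cultures 0.49 ± 0.50 (adjusted p = 0.726). On the same strand, the clone-named locus RP24-476A4.1 shares 685 exonic bases with Itga1, 3.68% of its length. That locus had 5.15, 1.99 and 2.03 CPM in late SV40-I libraries and 0.836, 2.57 and 0.746 CPM in OT-I libraries, against no count in naive libraries, so reads could not be divided between the 2 there. The gene Pelo, which lies within Itga1 and shares no exonic base with it, stayed between 4.44 and 14.8 CPM throughout.

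Itgav (chromosome 2, 83724397 to 83806916, plus strand) encodes alphav, which pairs with several beta chains, binds vitronectin and fibronectin and can activate latent TGF-beta. It was highest in culture, at 34.6 and 41.4 CPM under TOX-GFP and 16.6 and 21.1 CPM under GFP. In lesions the late SV40-I libraries had 5.28, 7.58 and 6.85 CPM and OT-I libraries 0.0246, 1.41 and 5.09 CPM. Marker-high libraries had 3.22, 3.56 and 2.19 CPM, marker-low libraries 3.45, 2.29 and 2.01 CPM, and naive libraries 0.308, 2.59 and 2.08 CPM. Every TOX-GFP library lay above every GFP library, and every late SV40-I library above every OT-I and naive library. Between the cultures the difference was 0.97 ± 0.19 on the log2 scale, which did not pass over all genes (unadjusted p = 0.00229, adjusted p = 0.216). It passed with DESeq2 (0.000642) and without GFP replicate 2 (0.0251). GFP cultures exceeded naive cells by 3.51 ± 1.08 (adjusted p = 0.0205), a call lost without naive replicate 1 (0.0637) or GFP replicate 2 (0.0776). Late SV40-I against OT-I cells gave 1.58 ± 1.08 (adjusted p = 0.446) and against naive cells 2.05 ± 1.1 (adjusted p = 0.216), neither of which passed. On the opposite strand a clone-named locus shares 634 exonic bases with Itgav, 5.90% of its length, with 1.23 and 0.993 CPM in TOX-GFP and 0.254 and 0.696 CPM in GFP cultures.

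Itgb1 (chromosome 8, 128685654 to 128733200, plus strand) encodes beta1, the partner of alpha1, of alpha4 and of most matrix-binding alpha chains. There were 12.8, 24.5 and 38.7 CPM of Itgb1 in late SV40-I libraries, against 202, 409 and 196 CPM in OT-I libraries. Marker-high libraries had 19.9, 25.9 and 23.9 CPM and marker-low libraries 32.7, 39.2 and 33.6 CPM. In culture it stood at 382 and 394 CPM under TOX-GFP and 228 and 302 CPM under GFP, and naive libraries had 26.6, 9.46 and 19.8 CPM. OT-I cells and both cultures lay above the SV40-I cells of lesions and the naive cells, with no overlap.

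On the log2 scale Itgb1 fell by 3.42 ± 0.46 in late SV40-I against OT-I cells (adjusted p = 0.000544) and rose by 3.91 ± 0.47 in OT-I against naive cells (adjusted p = 0.000200). Both calls held under all 12 alternatives run for each. The alternative without the libraries rich in hepatocyte transcripts dropped late SV40-I library 2 and OT-I library 3. It kept OT-I library 2, which had 970 CPM of them, so their part in the Itgb1 calls was not tested. OT-I libraries 1, 2 and 3 held 1873, 3430 and 1333 CPM of the 8 erythroid and platelet genes beside the 202, 409 and 196 CPM of Itgb1, and 41.5, 970 and 1859 CPM of hepatocyte transcripts. The erythroid and platelet sum was 107 to 862 CPM in late SV40-I and 31.2 to 313 CPM in naive libraries, and its part in the Itgb1 calls was not tested. The naive cells are of the SV40-I line, so line and state cannot be told apart in the OT-I comparison. In GFP cultures Itgb1 rose by 3.83 ± 0.46 over naive cells (adjusted p = 1.78e-05). The TOX-GFP cultures exceeded the GFP cultures by 0.50 ± 0.15 without passing (adjusted p = 0.282), and passed without GFP replicate 2 (0.0228). Marker-high against marker-low cells gave -0.59 ± 0.42 (adjusted p = 0.682), and late SV40-I against naive cells gave 0.49 ± 0.42 (adjusted p = 0.459).

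Ex vivo, the beta2 family held the most abundant members. Itgal (chromosome 7, 127296260 to 127335138, plus strand) encodes alphaL, the LFA-1 chain that binds ICAM proteins. Late SV40-I libraries held 1252, 1132 and 1176 CPM and OT-I libraries 3542, 2885 and 3274 CPM. Marker-high libraries had 1002, 897 and 864 CPM, all below the marker-low libraries at 1612, 2049 and 1408 CPM. The cultures were lowest, with 664 and 621 CPM under TOX-GFP and 560 and 466 CPM under GFP, against 1580, 1206 and 1840 CPM in naive libraries. Itgal fell by 1.45 ± 0.19 in late SV40-I against OT-I cells (adjusted p = 0.000386), a call that held under all 12 alternatives. In marker-high against marker-low cells it fell by 0.87 ± 0.18 (adjusted p = 0.0395). That call was lost without marker-high replicate 1 (0.0714), 2 (0.141) or 3 (0.12), without marker-low replicate 1 (0.0892), 2 (0.14) or 3 (0.0625), with no filter (0.0606), with only those groups fitted (0.179) and with replicate number as a block (0.0668).

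Relative to naive cells, Itgal rose by 1.13 ± 0.18 in OT-I cells (adjusted p = 0.00194), a call that held under all 12 alternatives. It fell by 0.70 ± 0.18 in marker-high cells (adjusted p = 0.0154), a call lost without naive replicate 3 (0.0753) or marker-high replicate 2 (0.0576). In GFP cultures it fell by 1.59 ± 0.19 (adjusted p = 2.02e-05). Late SV40-I cells gave -0.32 ± 0.18 (adjusted p = 0.239) and marker-low cells 0.17 ± 0.18 (adjusted p = 0.570), neither of which passed. TOX-GFP against GFP cultures gave 0.27 ± 0.13 (adjusted p = 0.448).

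Itgb2 (chromosome 10, 77530252 to 77565708, plus strand) encodes beta2, the shared partner of alphaL, alphaM and alphaX. For Itgb2 the late SV40-I libraries had 3106, 2372 and 2742 CPM and OT-I libraries 5080, 3710 and 4267 CPM. Marker-high libraries had 2248, 1928 and 2380 CPM and marker-low libraries 2097, 3053 and 1938 CPM. TOX-GFP cultures had 522 and 540 CPM and GFP cultures 457 and 460 CPM, while naive libraries had 1677, 1204 and 1608 CPM. All lesion libraries lay above all naive libraries, and all cultures below them. Itgb2 rose over naive cells by 0.93 ± 0.21 in late SV40-I cells (adjusted p = 0.00738) and by 1.6 ± 0.21 in OT-I cells (adjusted p = 0.000370), both held under all 12 alternatives. Marker-low cells gave a rise of 0.70 ± 0.21 (adjusted p = 0.0352), which was lost without marker-low replicate 1 (0.0537) or 2 (0.233) and without naive replicate 1 (0.0600), 2 (0.124) or 3 (0.0729), with no filter (0.0743) and with only those groups fitted (0.127). The marker-high value of 0.59 ± 0.21 did not pass (adjusted p = 0.0553). The macrophage sum was 62.7 to 1135 CPM in late SV40-I and 350 to 704 CPM in OT-I libraries. It was 4299 to 6265 CPM in marker-high, 786 to 9334 CPM in marker-low and 118 to 310 CPM in naive libraries. The highest marker-low Itgb2 value, 3053 CPM, was that of library 2, which had 9334 CPM of macrophage transcripts. The part of these transcripts in the Itgb2 values was not tested. In GFP cultures Itgb2 fell by 1.71 ± 0.22 (adjusted p = 3.06e-05). Between late SV40-I and OT-I cells the value was -0.67 ± 0.21 (adjusted p = 0.0614), which passed with DESeq2 (0.0476) and under library totals (0.0349).

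Itgam and Itgax encode alphaM and alphaX, known as CD11b and CD11c. Both are complement receptor chains of myeloid cells, and effector CD8 T cells are known to carry them too. They lie side by side on chromosome 7 on the plus strand, Itgam from 128062640 to 128118491 and Itgax from 128129547 to 128150657. Their upstream sequences are shown because these neighbours did not follow the same order across groups, together with that of Itgb7, which separated late SV40-I from OT-I cells as Itgax did. The 250 bases before each start are from RefSeq (GRCm38.p6, in which 7 of the 10 members were matched), written 5′ to 3′ on the gene's strand. Capitals mark a match, on either strand, to GGGCGG or TGANTCA, the core letters bound by SP1 and AP-1 factors.

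Upstream sequences of Itgam, Itgax and Itgb7:
Itgam, chr7:128062390-128062639, plus strand: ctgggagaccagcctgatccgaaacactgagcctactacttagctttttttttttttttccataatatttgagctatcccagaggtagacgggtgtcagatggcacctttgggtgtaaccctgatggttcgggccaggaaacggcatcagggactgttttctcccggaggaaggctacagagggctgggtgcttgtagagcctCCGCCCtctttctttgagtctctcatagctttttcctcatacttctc
Itgax, chr7:128129300-128129549, plus strand: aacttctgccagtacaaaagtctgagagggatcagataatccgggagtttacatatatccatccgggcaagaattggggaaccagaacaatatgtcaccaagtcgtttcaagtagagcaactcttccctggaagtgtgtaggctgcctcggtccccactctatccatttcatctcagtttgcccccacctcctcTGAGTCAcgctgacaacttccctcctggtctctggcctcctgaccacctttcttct
Itgb7, chr15:102231936-102232185, minus strand: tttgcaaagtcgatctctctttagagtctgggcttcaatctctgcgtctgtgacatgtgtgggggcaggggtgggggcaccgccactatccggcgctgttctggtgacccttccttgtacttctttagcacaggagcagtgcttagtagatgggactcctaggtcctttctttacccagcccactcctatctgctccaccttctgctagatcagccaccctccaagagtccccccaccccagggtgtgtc

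The Itgam sequence holds the reverse complement of GGGCGG 47 bases before the start, letters found in 32.7% of 32851 RefSeq promoters of this length. The Itgax sequence holds TGANTCA 56 bases before the start, found in 6.75% of them. Neither occurs in the Itgb7 sequence. The letters TGTGGT (RUNX factors, in 14% of promoters) and CCGGAA (ETS factors, in 12%) were searched too and occur in none of the 3. No motif overlapped another in them. Itgb1 also separated late SV40-I from OT-I cells, and its sequence, not shown, holds GGGCGG 151 bases before the start. A match is a description of the letters only.

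Itgax had the largest log2 difference of the 10 members between late SV40-I and OT-I cells. It was near 0 in late SV40-I libraries, at 0.0510, 3.96 and 2.82 CPM, against 449, 341 and 387 CPM in OT-I libraries. Marker-high libraries had 42.0, 27.4 and 25.4 CPM and marker-low libraries 104, 154 and 78.7 CPM. The cultures had 0.207 and 0.377 CPM under TOX-GFP and 0 and 0.268 CPM under GFP, and naive libraries had 4.35, 1.32 and 1.75 CPM. OT-I libraries lay above all others, marker-low libraries lay above marker-high libraries, and late SV40-I overlapped naive libraries. Itgax fell by 7.42 ± 1.01 in late SV40-I against OT-I cells (adjusted p = 0.000546) and rose by 7.37 ± 1.00 in OT-I against naive cells (adjusted p = 0.000494), both held under all 12 alternatives.

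At days 8 to 9 Itgax was higher than in naive cells by 3.72 ± 0.85 in marker-high cells (adjusted p = 0.00804) and by 5.54 ± 0.92 in marker-low cells (adjusted p = 0.00174). The difference of -1.82 ± 0.78 between marker-high and marker-low cells did not pass (adjusted p = 0.389). Late SV40-I cells were lower than marker-high cells by a log2 fold change of -3.78 ± 0.85 (adjusted p = 0.0236), a comparison in which day and gate also cannot be told apart. That call was lost without late SV40-I replicate 3 (0.0862) and without marker-high replicate 1 (0.0802) or 2 (0.0620), with only those groups fitted (0.135) and without the library rich in hepatocyte transcripts (0.0644). Late SV40-I against naive cells gave -0.06 ± 0.79 (adjusted p = 0.975). GFP cultures fell below naive cells by 4.18 ± 1.22 (adjusted p = 0.0155), lost without GFP replicate 1 (0.142) and with only those groups fitted (0.0687), and TOX-GFP against GFP cultures gave 1.07 ± 1.42 (adjusted p = 0.801).

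The level of Itgam was low throughout. Late SV40-I cells gave 0.842, 4.06 and 2.91 CPM and OT-I libraries 4.33, 7.71 and 7.53 CPM. Marker-high libraries had 8.97, 9.12 and 12.4 CPM and marker-low libraries 4.43, 41.5 and 3.21 CPM. TOX-GFP cultures had 0.0478 and 0.0856 CPM, GFP cultures 0.0727 and 0.0357 CPM, and naive libraries 0.349, 0 and 0.597 CPM. The highest value was that of marker-low library 2. Over naive cells Itgam rose by 5.01 ± 1.25 in marker-high cells (adjusted p = 0.0123) and by 5.71 ± 1.29 in marker-low cells (adjusted p = 0.0104), the second of which was lost with only those groups fitted (0.0534). In OT-I cells it rose by 4.4 ± 1.22 (adjusted p = 0.0444), a call lost without OT-I replicate 1 (0.0663), 2 (0.101) or 3 (0.0911) and without naive replicate 1 (0.138), 2 (0.0895) or 3 (0.0774), under a replicate block (0.0703) and without the library rich in hepatocyte transcripts (0.110). Late SV40-I cells gave 3.07 ± 1.16 without passing (adjusted p = 0.0847), and passed with DESeq2 (0.0146). Late SV40-I against OT-I cells gave -1.33 ± 1.06 (adjusted p = 0.530), marker-high against marker-low cells -0.70 ± 1.04 (adjusted p = 0.900) and GFP cultures against naive cells -2.49 ± 1.41 (adjusted p = 0.183). Marker-high against marker-low cells turned to 1.42 without marker-low replicate 2. The level of Itgam is uncertain, because 3450 exonic bases, 68.7% of its length, are shared with the clone-named locus RP23-144N15.4 on the same strand. That locus had no count in late SV40-I libraries and 1.08, 1.88 and 1.78 CPM in OT-I libraries.

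Myeloid transcripts were measured beside Itgam and Itgax. In the marker-high libraries Itgam stood at 8.97 to 12.4 CPM beside 4299 to 6265 CPM of the 12 macrophage genes, and in marker-low library 2 at 41.5 CPM beside 9334 CPM. Their part in the Itgam level was not tested. Itgax was highest in OT-I libraries, where the macrophage sum was 350 to 704 CPM and Csf1r, a defining macrophage receptor gene, stood at 29.0 to 41.9 CPM. In marker-high libraries Itgax was 25.4 to 42.0 CPM at a Csf1r level of 543 to 1034 CPM. Marker-low libraries had 104, 154 and 78.7 CPM of Itgax beside macrophage sums of 2271, 9334 and 786 CPM. The dendritic sum was 86.6 to 934 CPM in late SV40-I libraries and 295 to 443 CPM in OT-I libraries. It was 1596 to 4200 CPM in marker-high, 381 to 5232 CPM in marker-low and 298 to 915 CPM in naive libraries. In OT-I library 1, where Itgax was 449 CPM, 10 of the 12 macrophage and 6 of the 10 dendritic genes had counts. There the dendritic genes Flt3, Clec9a, Batf3 and Siglech were at 0, while Cd74 stood at 200 CPM, H2-Ab1 at 49.5 CPM and Lyz2 at 237 CPM. Flt3 was also at 0 in late SV40-I libraries 1 and 2. In OT-I libraries 2 and 3, where Itgax was 341 and 387 CPM, all 12 macrophage genes had counts. Of the 10 dendritic genes, 10 had counts in OT-I library 2 and 9 in OT-I library 3. The sum of 10 neutrophil genes was 2.07 to 873 CPM in late SV40-I, 205 to 1430 CPM in OT-I, 345 to 996 CPM in marker-high and 167 to 3754 CPM in marker-low libraries. The part of myeloid RNA in the Itgax level was not tested.

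**Figure D2:**
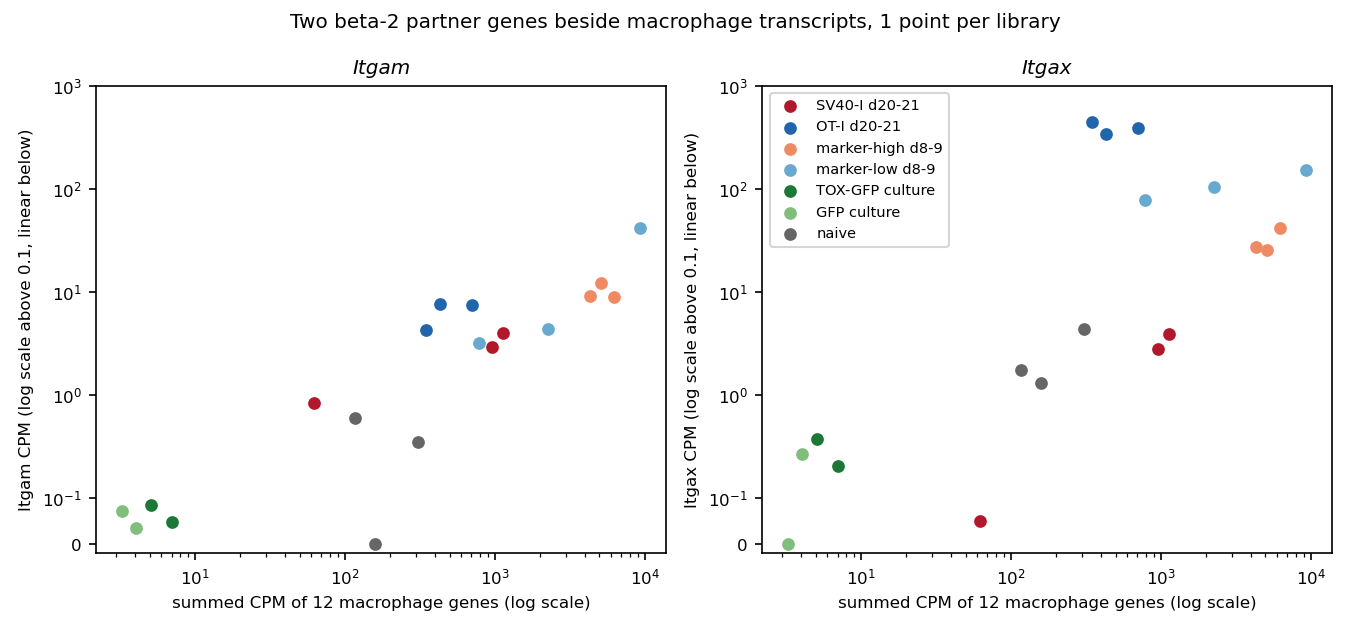
Itgam (left) and Itgax (right) in CPM against the summed CPM of 12 macrophage genes, 1 point per library, coloured by group; axes are logarithmic, with the vertical axis linear below 0.1. Itgam is highest in the library with the largest macrophage sum, while the 3 OT-I libraries have the highest Itgax at macrophage sums of 350 to 704 CPM.

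The comparison of late SV40-I with OT-I cells sets tumour-specific T cells beside T cells of another specificity in the same kind of lesion. None of the 10 members was called higher and 4 were called lower (Itgal, Itgax, Itgb1 and Itgb7), with 9.02% of all 16404 tested genes called in either direction, 4.91% higher and 4.11% lower. The median log2 fold change of the members was -1.39, beside -0.04 over all genes. The groups carry different receptors and come from different transgenic lines, so specificity and line cannot be told apart.

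Marker-high against marker-low cells asked what goes with the inhibitory receptors early in lesions. It is not certain whether gate, genotype or both set these groups apart. Itgal alone was called, lower, against 1.19% of all genes called in either direction and 0.719% lower, and the members' median was -0.65, beside 0 over all genes. In the cultures, TOX-GFP against GFP asked what TOX does without tumour. Of the 10 members 9 could be tested, Itgam having too few counts, and edgeR called none of them and none of 14614 genes (0.00%). There were 1906 genes at an unadjusted p under 0.05, and DESeq2 called 560, of which Itgav was the 1 member. The median of the 9 members was 0.27, beside 0.01 over all genes.

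The effects themselves were compared as well. The late SV40-I against OT-I effect was more negative than the marker-high against marker-low effect for Itgax by -5.60 ± 1.15 (adjusted p = 0.0380) and for Itgb1 by -2.83 ± 0.61 (adjusted p = 0.0466), so 2 of 10 members were called, both lower, against 1.03% of all genes in either direction and 0.402% lower. The Itgax call was lost in 9 and the Itgb1 call in 11 of the 12 fits that each left out 1 library, with adjusted p from 4.64e-05 to 0.115 and from 0.000402 to 0.130 over all alternatives. Itgb7, at -3.13 ± 0.79, did not pass (adjusted p = 0.0921). The TOX-GFP against GFP effect did not differ from the marker-high against marker-low effect by the test for any member, with 0.0269% of 18608 genes called, 0.0215% higher and 0.00537% lower. Itgal came nearest, at 1.20 ± 0.26 (adjusted p = 0.182).

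**Figure D3:**
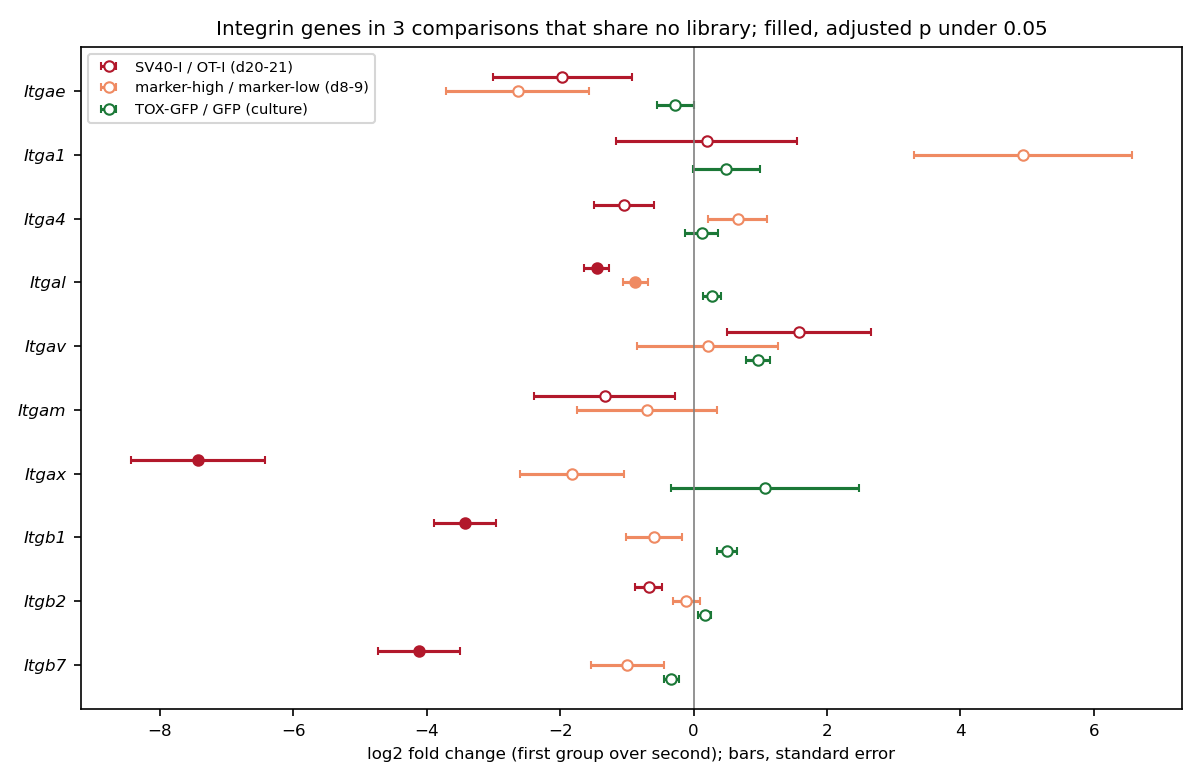
Log2 fold changes of the 10 members in late SV40-I over OT-I cells, marker-high over marker-low cells and TOX-GFP over GFP cultures, with standard errors; filled points have an adjusted p under 0.05. Itgax, Itgb7, Itgb1 and Itgal lie at -7.42, -4.12, -3.42 and -1.45 between late SV40-I and OT-I cells, and the TOX-GFP differences lie between -0.33 and 1.07.

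Against the naive libraries, the calls differed in which members they took. Late SV40-I cells had 2 members called higher (Itga1 and Itgb2) and 2 lower (Itgae and Itgb7), with 18% of all genes called (11.1% higher, 6.86% lower) and member and gene medians of 0.38 and 0.05. OT-I cells had 6 higher (Itga1, Itgal, Itgam, Itgax, Itgb1 and Itgb2) and 1 lower (Itgae), with 7.35% of genes called (5.06% higher, 2.29% lower) and medians of 1.46 and 0.04. In marker-high cells 3 were called higher (Itga1, Itgam and Itgax) and 3 lower (Itgae, Itgal and Itgb7), with 23.4% of genes called (14.3% higher, 9.10% lower) and medians of 0.47 and 0.06. For marker-low cells 3 were called higher (Itgam, Itgax and Itgb2) and 1 lower (Itgae), with 16.8% of genes called (10.6% higher, 6.21% lower) and medians of 0.69 and 0.09. With only marker-low and naive cells fitted, 9 members were tested, of which 1 was called higher (Itgax) and 3 lower (Itgae, Itga4 and Itgb7). Of all 13719 genes tested in that fit, 1247 were called higher and 1099 lower. GFP cultures had 3 higher (Itga1, Itgav and Itgb1) and 5 lower (Itgae, Itga4, Itgal, Itgax and Itgb2), with 32.6% of genes called (17.6% higher, 15% lower) and medians of -1.65 and 0. Between late SV40-I and marker-high cells 2 members were called (Itgax and Itgb7, both lower), against 5.33% of genes (1.76% higher, 3.57% lower), with medians of 0.36 and 0.04.

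**Figure D4:**
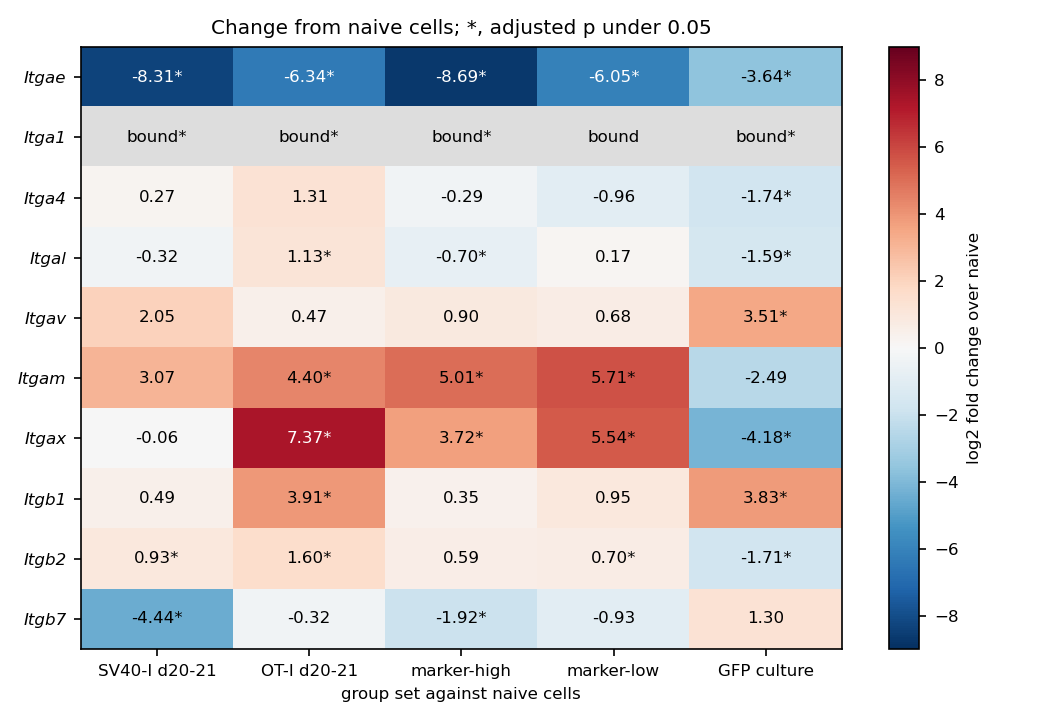
Log2 fold changes of the members over naive cells in 5 groups; a star marks an adjusted p under 0.05, and Itga1, which had no count in naive libraries, is given as a bound in the text. Itgae is lower in every column, from -8.69 in marker-high cells to -3.64 in GFP cultures, and Itgb1 stands at 3.91 in OT-I cells and 3.83 in GFP cultures but between 0.35 and 0.95 in the other groups.

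Ratios of levels per length within a library show how chains stood to each other. Itgb7 over Itgb1 was 1.49 ± 1.71 in late SV40-I and 1.73 ± 0.469 in OT-I cells. The marker-high libraries gave 6.58 ± 5.07 and the marker-low libraries 8.27 ± 0.699. It was 2.99 ± 0.354 in TOX-GFP and 5.44 ± 1.32 in GFP cultures, and 34.5 ± 14.8 in naive cells. All 3 naive libraries, at 24.2 to 51.5, lay above every other library. The late SV40-I mean rested on library 1 at 3.47, the other libraries being at 0.576 and 0.441. Itgal over Itgb2 was 0.187 to 0.222 in late SV40-I and 0.324 to 0.361 in OT-I libraries. The range was 0.169 to 0.216 in marker-high and 0.312 to 0.357 in marker-low libraries, so both pairs of groups stood apart without overlap. Cultures and naive libraries were higher, at 0.534 to 0.591 with TOX-GFP, 0.472 to 0.570 with GFP and 0.438 to 0.532 in naive cells. These ratios are of RNA and were not tested.

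**Figure D5:**
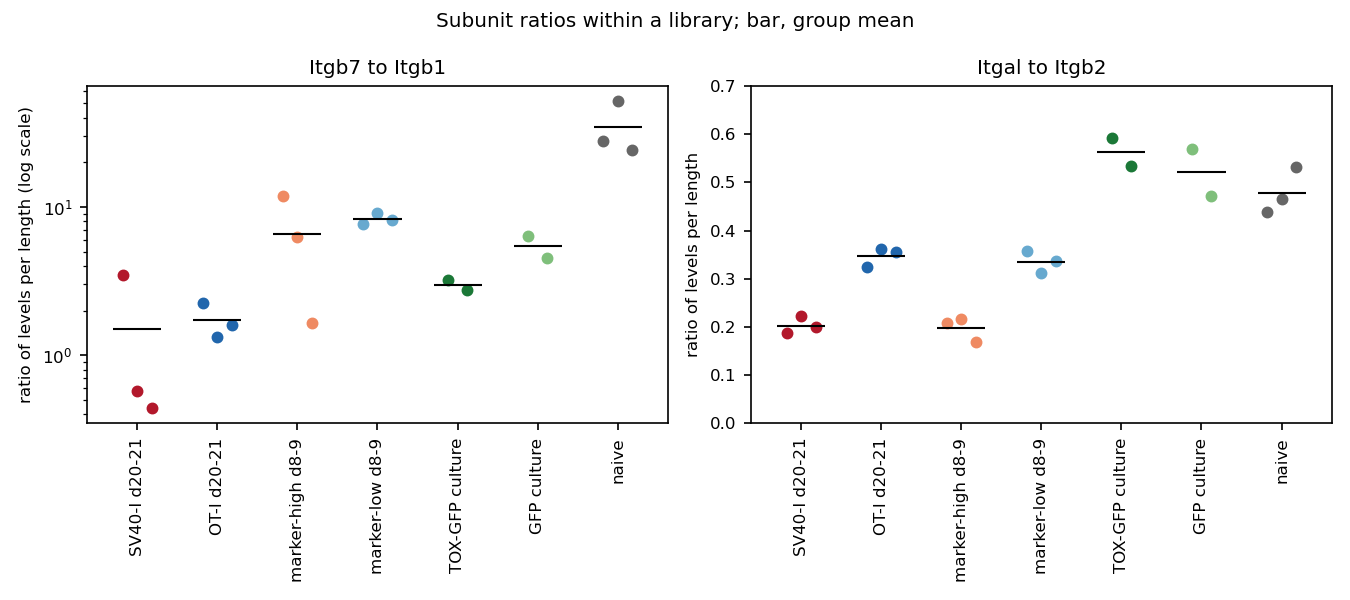
Ratio of Itgb7 to Itgb1 (left, log axis) and of Itgal to Itgb2 (right, linear axis) in levels per length, 1 point per library with the group mean as a bar. Naive libraries have the highest Itgb7 to Itgb1 ratio, at 24.2 to 51.5, and late SV40-I and marker-high libraries have the lowest Itgal to Itgb2 ratio, at 0.169 to 0.222.

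Genes that act with integrins were counted from lists of their own. Of 22 activation and adaptor genes, 4 were called higher and 6 lower in late SV40-I against OT-I cells, with a median of -0.30, beside 9.02% of all genes called and a median of -0.04. Rasgrp2, the exchange factor that turns on Rap1, fell by 2.26 ± 0.24 (adjusted p = 8.39e-05) to 30.3 ± 5.89 CPM in late SV40-I cells, against 145 ± 11.5 CPM in OT-I cells. Flna, the actin-binding protein filamin A that competes with talin for integrin tails, fell by 2.79 ± 0.36 (adjusted p = 0.000422) to 449 ± 136 CPM in late SV40-I cells, against 3088 ± 1051 CPM in OT-I cells. Of 17 other subunit genes 12 were tested, none was called higher, and Itga7 and Itgb3 were called lower. Itga7 had no count in late SV40-I and 1.13 ± 0.0666 CPM in OT-I cells (adjusted p = 0.0137), a call lost without the libraries rich in hepatocyte transcripts (0.0811). Itgb3, the platelet and alphav partner chain, fell by 2.41 ± 0.65 to 3.11 ± 1.92 CPM in late SV40-I cells, against 16.6 ± 4.91 CPM in OT-I cells (adjusted p = 0.0350). The Itgb3 call was lost without OT-I replicate 1 (0.0855) or 2 (0.102) and without late SV40-I replicate 2 (0.0905) or 3 (0.102), with only those groups fitted (0.0567) and without the libraries rich in hepatocyte transcripts (0.117). The summed level of 8 erythroid and platelet genes was 107 to 862 CPM in late SV40-I and 1333 to 3430 CPM in OT-I libraries. The part of such transcripts in the Rasgrp2, Flna and Itgb3 values was not tested.

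Of 12 ligand genes 10 were tested in that comparison and Icam2 alone was called. Icam2, an LFA-1 ligand, fell by 2.05 ± 0.28 (adjusted p = 0.000574) to 50.1 ± 7.04 CPM in late SV40-I cells, against 206 ± 37.6 CPM in OT-I cells. In marker-high against marker-low cells, no other subunit or ligand gene was called and 2 of 22 activation genes were, both lower, beside 1.19% of all genes. Cyth1, a cytohesin that binds the beta2 tail, fell by 1.33 ± 0.23 (adjusted p = 0.0172) to 155 ± 52.4 CPM in marker-high cells, against 390 ± 74.8 CPM in marker-low cells. Rasgrp2 fell by 1.04 ± 0.23 (adjusted p = 0.0476) to 50.9 ± 14.5 CPM in marker-high cells, against 105 ± 18.7 CPM in marker-low cells. Leaving out any of the 6 libraries ended the Rasgrp2 call (adjusted p from 0.0609 to 0.166), as did no filter (0.0652), a replicate block (0.0566) and only those groups fitted (0.259), and the Cyth1 call was lost without marker-high replicate 1 (0.0640) or 2 (0.0696) and with only those groups fitted (0.152). No gene of the 3 lists was called between TOX-GFP and GFP cultures.

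In GFP cultures against naive cells 3 activation genes were called higher and 13 lower of 22, with a median of -1.19, beside 17.6% of all genes called higher, 15% lower and a median of 0. Sipa1, which turns Rap1 off, rose by 3.44 ± 0.44 to 170 ± 6.41 CPM in GFP cultures, against 15.7 ± 3.46 CPM in naive cells (adjusted p = 3.20e-05). Rassf5, the Rap1 effector that binds alphaL, fell by 1.32 ± 0.18 to 440 ± 9.15 CPM in GFP cultures, against 1099 ± 164 CPM in naive cells (adjusted p = 4.98e-05). Of 10 ligand genes tested 2 were called higher and 3 lower. The smallest p-values were those of Icam2, which fell by 2.92 ± 0.33 to 32.7 ± 4.47 CPM, against 248 ± 50.1 CPM in naive cells (adjusted p = 1.00e-05), and Icam1, which fell by 2.07 ± 0.44 to 97.7 ± 2.57 CPM, against 411 ± 86.6 CPM in naive cells (adjusted p = 0.00195). Of 14 other subunits tested Itga9 alone was called, at 1.6 ± 1.03 CPM in GFP cultures, against 0.0160 ± 0.0276 CPM and 2 counts in naive cells (adjusted p = 0.0122), and the call was lost without GFP replicate 1 (0.0538).

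The remaining comparisons gave the following counts. In late SV40-I against naive cells, 6 activation genes were called higher and 7 lower of 22, 1 other subunit higher and 3 lower of 12 tested, and 2 ligand genes higher and 2 lower of 10 tested, beside 11.1% of all genes higher and 6.86% lower. OT-I against naive cells gave no call in either direction among activation genes and other subunits and 1 ligand gene called higher, beside 5.06% of genes higher and 2.29% lower. Marker-high against naive cells gave 2 activation genes higher and 7 lower, 3 other subunits higher and 1 lower, and 1 ligand gene each way, beside 14.3% of genes higher and 9.10% lower. Marker-low against naive cells gave 5 activation genes lower and none higher, with 2 other subunits and 2 ligand genes higher, beside 10.6% of genes higher and 6.21% lower. Late SV40-I against marker-high cells gave 1 activation gene higher and 2 other subunits lower, beside 1.76% of genes higher and 3.57% lower.

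The genes most like 5 members over the 19 libraries were found by Pearson's r of log2(CPM + 1) among 9442 genes with a mean of at least 10 CPM in some group. Libraries of a group share their state and other-cell content, so r is given as a description. For Itgae these were Dntt, which encodes the terminal transferase of receptor gene assembly (r = 0.954), Pomgnt2 (0.947) and Spsb1 (0.939). For Itga1 they were Sytl3 (0.945), a clone-named locus (0.921) and Heatr9 (0.917). Itgax was closest to a clone-named locus (0.946), Pald1 (0.945) and Apobec2 (0.928). Itgam was closest to Myadm (0.957), Mtus1 (0.956) and F13a1, the clotting factor XIII chain of macrophages and platelets (0.952). Itgav was closest to Rfng, a glycosyltransferase that modifies Notch (0.935), Rab24 (0.931) and Plbd2 (0.924).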

How the data were processed

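RNA was amplified with SMART-Seq v4 and sequenced as paired ends, per the labels' protocols. The deposited tables hold raw counts of fragments per gene, which the authors made with featureCounts 1.6.2 on GENCODE M17 (GRCm38.p6), per the file headers. No strand option appears there, so overlapping genes are uncertain, as are reads in shared exons. The submitters' processing notes also name FastQC, STAR and DESeq2, with no version for these.

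The tests were robust quasi-likelihood F tests of edgeR 4.0.16 (R 4.3.3) on the counts, with TMM scaling and filterByExpr, and Benjamini-Hochberg adjustment over all genes, called at an adjusted p under 0.05. The 15 ex vivo libraries were fitted together (16404 genes), the 4 cultured libraries alone (14614 genes), and all 19 (18608 genes) for comparisons across them. CPM are given with SD between libraries and log2 fold changes with standard errors equal to the change divided by the root of F, approximate near 0. A gene at 0 has a limit of 3 counts a library, or 0.0478 to 0.0822 CPM, and floors cover counting error only, as reads carry no molecular identifiers. Alternatives were DESeq2 1.42.0, library totals, no filter, a replicate block, only the groups compared, leaving out libraries over 1000 CPM of hepatocyte genes, and leaving out each library.

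Libraries of a group were not duplicates: their chi-square against counting noise was 27.1 to 438 per degree of freedom. Since no label says that a replicate is an animal or culture of its own, a p-value here reflects only how far these libraries scatter, some of it possibly technical. Replicate numbers in the titles were checked for pairing by the correlation of deviations from group means. Among the comparisons with 3 pairs, every pair exceeded 0.1 only for marker-high against naive cells (0.167, 0.241 and 0.270). There the block left the members called at 3 higher and 3 lower, beside 2237 genes higher and 1588 lower of 16404. Each library matched its own number best in that comparison. The same held for late SV40-I against naive cells (0.0743, 0.021 and 0.0972) and against marker-high cells (0.169, 0.0523 and 0.206). With the block, 2 members were called higher and 2 lower against naive cells, and 2 lower against marker-high cells. Beside them, 1662 genes were called higher and 1206 lower against naive cells, and 312 higher and 543 lower against marker-high cells. Both culture pairs gave 0.177, which is a single value, since with 2 libraries per group the deviations mirror each other. Members and lists were chosen with earlier results of these data known. The genes named beside the members are those that share exonic bases with them or lie in their introns (not all are named), the 2 with the smallest p of each list among those called in 4 comparisons (late SV40-I with OT-I, the marker groups, the cultures, and GFP with naive), and the 3 most like each of 5 members. Scripts were tested on simulated counts with known changes. For late SV40-I against OT-I cells, 41 of 100 genes changed by 2 on the log2 scale were recovered. Of 100 genes changed by 4, 81 were recovered, and 5 of 15707 genes were called falsely in that simulation. For the cultures, 87 and 99 of 100 were recovered, with 19 of 14147 genes called falsely. The changed genes were drawn only from those above a minimum count. These shares therefore do not cover members with few counts, such as Itgax and Itga1 in culture. A difference that did not pass may therefore be a missed one.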

Additional observations from a re-analysis of the deposited data

Results flagged for a closer look

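For 2 members, the effect over naive cells differed between late SV40-I cells (days 20 to 21) and marker-high SV40-I cells (days 8 to 9) by the test of the difference. The naive libraries cancel in that difference, so it is the direct comparison of the 2 groups given above and not a separate result. For Itgax the difference was -3.78 on the log2 scale (edgeR adjusted p = 0.0236), with 2.28 ± 2.01 CPM in late SV40-I cells and 31.6 ± 9.09 CPM in marker-high cells (SD, n = 3 each). The Itgax call was lost in 5 of 12 alternatives. For Itgb7 the difference was -2.52 (edgeR adjusted p = 0.0245), with 17.1 ± 11.3 CPM in late SV40-I cells and 99.0 ± 67.1 CPM in marker-high cells. The Itgb7 call was lost in 6 of 12 alternatives. The summed level of 12 macrophage genes was 62.7 to 1135 CPM in late SV40-I libraries and 4299 to 6265 CPM in marker-high libraries, so its part, the day and the sorting gate cannot be told apart.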

How the results depend on the processing

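DESeq2 called more genes: 2455 in late SV40-I against OT-I cells, 737 in marker-high against marker-low cells, 2334 in OT-I, 4307 in marker-low against naive cells, 2167 in late SV40-I against marker-high cells (950 higher and 1217 lower, beside 289 and 585), 560 between cultures, and 768 and 155 for the 2 differences of effects. Members called under DESeq2 were 2 in marker-high against marker-low cells and 1 each between cultures and for the TOX-GFP against marker-high difference of effects. With only the groups compared, genes called were 4 in marker-high against marker-low cells, 325 in late SV40-I against marker-high cells and 3 for the difference with the cultures, and members called were 0, 0 and 1 in marker-high against marker-low cells, late SV40-I against marker-high cells and the ex vivo difference of effects. For that ex vivo difference, 89 genes were called higher and 46 lower of 15747 tested. Without the libraries rich in hepatocyte transcripts, genes called were 689 in late SV40-I against OT-I cells, 368 in late SV40-I against marker-high cells and 78 for the ex vivo difference, with 0 members called in the last 2, and Itgav in OT-I against naive cells turned to -1.23. With no filter, 6 genes were called between cultures, and members called were 0 in marker-high against marker-low cells and 1 for the ex vivo difference. Of 28745 genes tested ex vivo without the filter, 71 were called higher and 101 lower in marker-high against marker-low cells. For the ex vivo difference 81 were higher and 64 lower. Under library totals, GFP cultures against naive cells split into 4079 higher and 1974 lower, beside 3268 and 2789, with the median of all genes shifted by 0.256.

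Leaving out 1 library at a time, genes called ran from 872 to 1111 in late SV40-I against OT-I cells, 38 to 159 in marker-high against marker-low cells, 0 to 1400 between cultures (1400 without GFP replicate 2), 311 to 1669 in late SV40-I against marker-high cells (1669 without marker-high replicate 3), and 71 to 305 and 0 to 10 for the ex vivo difference of effects and that with the cultures. Against naive cells they ran from 2064 to 2350 for late SV40-I, 773 to 861 for OT-I, 2414 to 3581 for marker-high, 1402 to 2174 for marker-low cells and 3760 to 5324 for GFP cultures. Members called ran from 4 to 4, 0 to 0, 0 to 2, 0 to 2, 0 to 2 and 0 to 0 in the first 6, and from 4 to 4, 5 to 6, 4 to 6, 3 to 4 and 4 to 7 in the 5 against naive cells. The genes tested in these fits numbered from 15493 to 20665. No called difference changed sign. Late SV40-I against OT-I gave Itga1 from -0.24 to 0.59, and marker-high against marker-low gave Itgam from -1.19 to 1.42 and Itgb2 from -0.25 to 0.13. Against naive cells, Itgax ran from -0.80 to 0.63 in late SV40-I, Itgav from -1.13 to 1.05 in OT-I, Itga4 from -0.83 to 0.068 in marker-high and Itgal from -0.074 to 0.33 in marker-low cells. Late SV40-I against marker-high gave Itgb1 from -0.28 to 0.45 and Itgae from -0.70 to 0.80, and the cultures gave Itga4 from -0.15 to 0.44 and Itgae from -0.74 to 0.074. Where replicates share only a number, the block gave 144 genes and 0 members in marker-high against marker-low cells, 5 higher and 1 lower member in OT-I against naive cells and 0 members for the ex vivo difference. Of 16404 genes tested with the block, 736 were called higher and 325 lower in OT-I against naive cells. For the ex vivo difference 91 were higher and 65 lower. The cause of these changes was not tested.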
